A study of Bos taurus with 30 samples.

Results

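The comparison described here is susceptible bovine skin 48 h after tick infestation against susceptible skin before infestation (0 h). Its members are the 5 arrays whose titles name susceptible skin at 48 h, from animals 7, 9, 10, 11 and 13, and the 3 arrays whose titles name susceptible skin at 0 h, from animals 9, 10 and 11. These are 8 of the 30 arrays of the series, and only animals 9, 10 and 11 are present at both times. Animals 7 and 13 enter at 48 h without a 0 h array analysed here, so the comparison mixes changes within 3 animals with differences between animals. All animals belonged to an F2 herd bred from Gyr (Bos indicus) and Holstein (Bos taurus), and the labels call 7 animals tick susceptible and 6 tick resistant. Biopsies were taken at 0 h, before infestation, and where ticks fed at 24 h and 48 h. Total RNA was measured on an Affymetrix bovine expression array, in which a probe set is a group of short probes that reads a transcript. The labels give no tick species or number, and no age or sex of the animals. The other groups used below are susceptible skin at 24 h (6 arrays) and resistant skin at 0 h and 48 h (5 arrays each).

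Ticks attach to skin by inserting mouthparts into the dermis, and they feed on a pool of blood and tissue fluid for days. Tick saliva carries proteins that block clotting, complement, chemokines and the activity of host leukocytes. Skin answers such an injury with keratinocyte signals, complement, and the arrival of neutrophils, macrophages, T cells, mast cells and other leukocytes, and cattle differ by breed and by animal in how strongly they reject ticks.

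The comparison asks what differs in susceptible skin after 48 h of infestation. No probe set passed. Of 13809 probe sets bright enough to be kept, limma called 0 (0%) at an adjusted p under 0.05, and the smallest adjusted p was 0.99999. At an unadjusted p under 0.05, 131 probe sets were found (0.949%), of which 79 were higher at 48 h (0.572%) and 52 were lower (0.377%). That is fewer than the 690 that a uniform distribution of p-values would place there. The p-values were crowded towards 1 instead, with 906 probe sets between 0.95 and 1. The median difference over all probe sets was -0.0076 on the log2 scale, the middle of the distribution ran from -0.12 to 0.11 (the quartiles), and the extremes were -1.94 and 2.13.

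**Figure D1:**
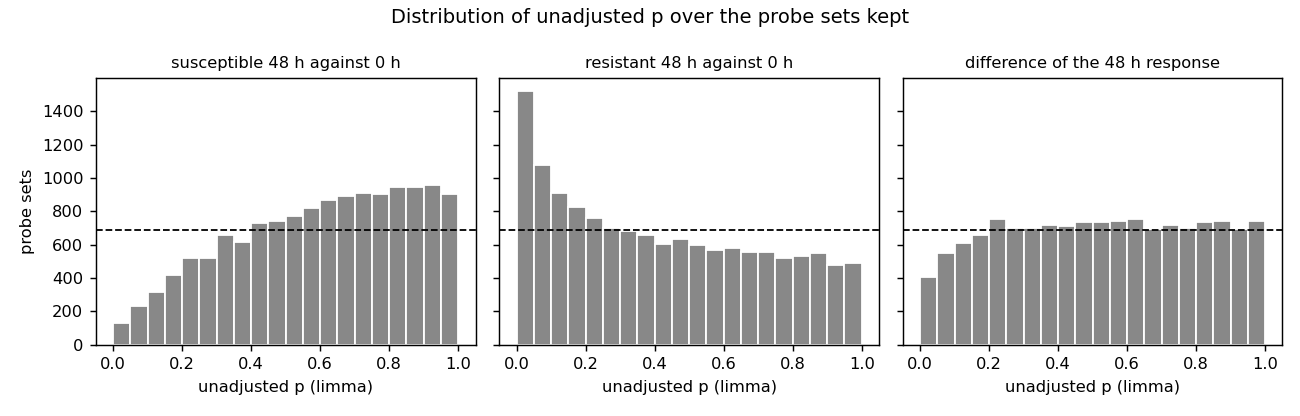
Histograms of the unadjusted p-value from limma over the 13809 probe sets kept, in 20 bins, for susceptible skin at 48 h against 0 h, for resistant skin at 48 h against 0 h, and for the difference between these responses. The dashed line is the number per bin that a uniform distribution gives (690), and the first bin holds 131, 1522 and 405 probe sets.

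A count of 0 does not show that the tissue was the same at both times, and the intervals say how large a difference each probe set still allowed. The median 95% interval reached 0.47 log2 units to either side of the estimate. For 11632 probe sets (84.2%) the whole interval lay within 1 log2 unit of 0, which leaves less than a 2-fold difference in group means. For 6464 probe sets (46.8%) it lay within a 1.5-fold difference. Genes that vary widely between animals had far wider intervals, as the pigment and histocompatibility genes below show. The same fit called no probe set in resistant skin at 48 h against 0 h either, but there 1522 probe sets (11%) had an unadjusted p under 0.05, and the smallest adjusted p was 0.128.

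The array values supported the skin label. KRT5 and KRT14, keratins of basal keratinocytes, lay above the 98th percentile of probe sets in each of the 8 arrays, as did the hair follicle keratin KRT25. The fibroblast genes DCN and COL3A1 were also above the 99th percentile in each. Some markers of other tissues were bright as well. The probe set for ALB, the albumin gene of liver, lay at percentile 95 to 98.1 of its array, and that for the muscle creatine kinase CKM at percentile 82.3 to 96.5. The other markers measured for these tissues were dimmer. For liver, APOA1 lay at percentile 49.1 to 65.7 and APOB at 9.5 to 26.4. For skeletal muscle, ACTA1 lay at percentile 14.9 to 63.4, MB at 29.6 to 46.35, TNNT3 at 14.9 to 36.9 and MYH1 at 15.5 to 37.4. Of the red cell markers, HBA and ALAS2 stayed below the 23rd percentile and HBB lay at percentile 28.7 to 47.6. Of the B cell markers, the receptor gene CD79A stayed below the 10th percentile and MS4A1, which encodes CD20, lay at percentile 49.8 to 80.6. Over the 100 probe sets that differed most between animals, each susceptible array correlated best with another array of its own animal wherever one existed (r at least 0.954, against at most 0.869 with any other animal). These probe sets were chosen for that property, so the values describe the labelling of animals and test nothing.

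The 5 arrays at 48 h were less alike than the 3 at 0 h. The correlation between arrays over all probe sets kept ran from 0.932 to 0.947 within 0 h and from 0.866 to 0.954 within 48 h. The median SD of a probe set was 0.22 at 0 h (n = 3) and 0.30 at 48 h (n = 5). On the first principal component of all 30 arrays (17.7% of the variance), animal 11 at 48 h lay at 38.3 and animal 10 at 48 h at -30.9, while the 0 h arrays lay between -11.5 and 10.5. The actin control probe sets, whose 3' minus 5' signal grows as RNA or its copying shortens, gave 1.46 to 3.16 log2 units at 0 h and 1.67 to 3.68 at 48 h. The same quantity for the GAPD control was 0.59 to 0.72 at 0 h and 0.23 to 1.60 at 48 h, where animal 9 (1.60) and animal 11 (1.02) were highest. The part of RNA quality in the results was not tested. XIST, an RNA made from the inactive X chromosome of female cells, split the animals. It read 11.64 and 11.78 in animal 11 at 0 h and 48 h and 11.80 in animal 13, and between 2.13 and 5.37 in the arrays of animals 7, 9 and 10. The part of this split in the results was not tested.

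The genes with the smallest unadjusted p had varied functions. PDE4DIP, which encodes a centrosome and Golgi anchoring protein, had the smallest p of a named gene. Its log2 signal was 7.002, 5.83 and 6.61 in animals 9, 10 and 11 at 0 h, and 7.63, 7.21, 7.15, 7.31 and 7.21 in animals 7, 9, 10, 11 and 13 at 48 h. The groups did not overlap, and the 0 h value of animal 10 was the lowest of all. The difference was 0.82 ± 0.24 (SE, 95% interval 0.33 to 1.32) with an adjusted p of 0.99999 by limma. Other kept probe sets of PDE4DIP gave differences from -0.10 to 0.41.

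The other genes higher at 48 h with small p had varied cellular roles. FAH, the last enzyme of tyrosine breakdown, had values of 4.34, 6.42 and 6.38 at 0 h and 6.94, 7.13, 6.73, 6.72 and 8.15 at 48 h. The 1.42 difference (interval 0.38 to 2.47) leaned on 2 arrays, the low one of animal 9 at 0 h and the high one of animal 13 at 48 h. PYGO2, a co-activator of Wnt signalling, was 7.23, 7.90 and 7.59 at 0 h and 8.22, 8.002, 8.29, 8.01 and 7.95 at 48 h, a difference of 0.52. NASP, a histone chaperone, stood 0.49 higher, HAUS4 of the spindle augmin complex 0.46 higher, and OSGEP, which modifies transfer RNA, 0.51 higher. The remaining genes named by their p were GPATCH1 (0.74), a spliceosome-associated protein, SNAPC5 (0.58), a subunit of the complex that drives small nuclear RNA genes, NCBP2AS2 (0.76) and ADCK5 (0.43). In 9 of these 10 genes animals 9, 10 and 11 all stood higher at 48 h than at 0 h, and SNAPC5 was lower in animal 10. None passed the adjusted threshold.

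RCAN2, among the genes lower at 48 h with the smallest p, encodes a regulator of the calcium-activated phosphatase calcineurin. It read 7.91, 7.64 and 8.08 in animals 9, 10 and 11 at 0 h and 7.30, 6.64, 6.52, 6.88 and 6.54 at 48 h. The groups did not overlap, and the 3 animals present at both times differed by -1.27, -1.12 and -1.21. The difference between groups was -1.10 ± 0.43 (SE, interval -1.99 to -0.22), and the adjusted p was 0.99999 by limma. GCHFR, the feedback regulator of the enzyme that starts tetrahydrobiopterin synthesis, read 7.498, 7.82 and 7.51 at 0 h and 7.39, 6.68, 7.02, 6.28 and 6.94 at 48 h. All 3 animals were lower at 48 h, by -0.82, -0.80 and -1.23, and the groups did not overlap.

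PGP, a phosphatase that clears phosphoglycolate, had the smallest p on the lower side with a difference of -0.76, but its other probe set gave 0.02. EEFSEC, the elongation factor for selenocysteine, had -1.43 and another probe set with -0.09, and animals 11 and 13 at 48 h (7.75 and 7.32) overlapped the 0 h values of 7.18 to 7.92. The rest were GNB3 (-0.61), a G protein subunit, BORCS5 (-0.57), which places lysosomes, JPT1 (-0.54), GDAP2 (-0.52), and the ubiquitin-conjugating enzymes UBE2D4 (-0.46) and UBE2Z (-0.30).

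**Figure D2:**
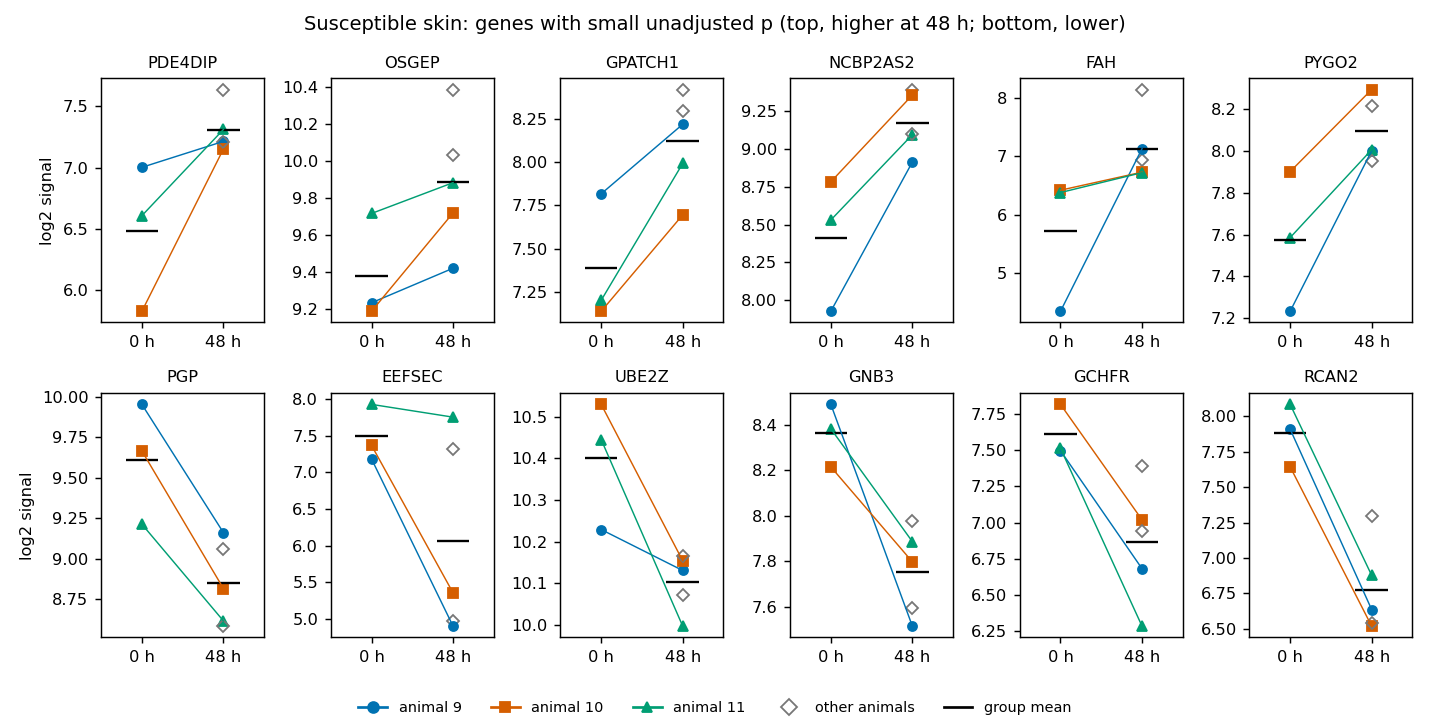
Log2 signal in each array of susceptible skin at 0 h and 48 h, for 6 genes higher at 48 h (top) and 6 lower (bottom) with small unadjusted p. Lines join animals 9, 10 and 11, open diamonds are animals 7 and 13, and black bars are group means. Each of the 3 joined animals moves the same way in all 12 panels, and EEFSEC, OSGEP and GPATCH1 overlap between times.

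Counts that need no model were low as well. The 5 arrays at 48 h lay wholly above the 3 arrays at 0 h for 91 probe sets (0.659%) and wholly below for 95 (0.688%), together 186 (1.35%). Animals 9, 10 and 11 were all higher at 48 h for 1170 probe sets (8.47%) and all lower for 1030 (7.46%). Each of these shares lay below what a random order of the arrays, or random signs within animals, would give. The counts, and the genes named from them below, are thus no support for a change.

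The larger non-overlapping differences on the lower side were in genes of several kinds. MYO1F, a myosin of leukocytes, read 6.82, 6.28 and 6.46 at 0 h and 4.06, 5.77, 2.83, 6.13 and 5.21 at 48 h. These values are dim and widely spread, and the difference of -1.72 had an interval from -3.95 to 0.51. IKZF3, a transcription factor of lymphocytes, stood at -0.91, CORO1A, an actin-binding coronin of leukocytes, at -0.70, and RGS10, a regulator of G protein signalling, at -0.67. SAMD9, which interferon can induce, stood at -1.02. CACNA1G, a calcium channel subunit, stood at -0.93, and DGAT2, which makes triglyceride, at -0.89. Of these 7 genes, only RGS10 and CACNA1G had an unadjusted p under 0.05 (0.025 and 0.047).

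On the higher side, the non-overlapping genes with the largest differences beyond those above were LOC534967 (1.63), PAGR1 (0.58), TUBGCP3 (0.57), EIPR1 (0.55) and DCAF15 (0.47). TUBGCP3 is part of the complex that starts microtubules, and DCAF15 guides a ubiquitin ligase. The other probe set of PAGR1 gave -0.24.

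Gene lists were read by how many members lay above or below 0 and by their median, beside all probe sets kept, of which 48.1% were higher and 51.9% lower. Of 44 lists of cell types and pathways, 42 had at least 3 kept genes. Their 518 distinct genes held 181 higher and 337 lower, and none reached an unadjusted p under 0.05, against 0.949% of all probe sets. List medians were below 0 in 31 lists and above 0 in 11, and only 1 list median reached 0.5 in size. Genes of a list share arrays and often cells, so these counts are not independent observations.

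The monocyte and macrophage list gave the clearest one-sided picture. All 14 kept genes were lower at 48 h, with a median of -0.36 and a range from -0.64 to -0.16, but no gene reached an unadjusted p under 0.05. C1QA, a chain of the complement starter C1q that macrophages make, read 11.10, 11.12 and 10.21 in animals 9, 10 and 11 at 0 h. At 48 h it read 10.97, 8.96, 8.44, 11.20 and 11.26 in animals 7, 9, 10, 11 and 13. Animals 9 and 10 at 48 h were low, and the other 3 arrays lay at the level of 0 h. The difference was -0.64 ± 0.48 (SE, interval -1.63 to 0.35; adjusted p = 0.99999 by limma). CSF1R, the receptor for the macrophage growth factor, was 7.72, 7.88 and 7.41 at 0 h and 8.22, 7.03, 4.49, 8.67 and 7.62 at 48 h, so its -0.46 rested on animal 10.

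The rest of the macrophage list repeated this layout. CD68, a lysosomal marker, differed by -0.35, the pore protein MPEG1 by -0.48, the complement receptor VSIG4 by -0.60, and AIF1, an actin-binding protein of macrophages, by -0.16. The mean of the list was 8.74, 8.69 and 8.23 in animals 9, 10 and 11 at 0 h. At 48 h it was 7.58 and 7.06 in animals 9 and 10, and 8.58, 9.04 and 8.62 in animals 7, 11 and 13. Within animals the median gene was -0.99 in animal 9 and -1.37 in animal 10, each with 14 of 14 genes lower, and 0.73 in animal 11, with 14 of 14 higher. The list median was -0.23 without animal 9 at 48 h, -0.61 without animal 11 at 48 h and -0.63 in the paired fit of animals 9, 10 and 11. Without animal 10 at 48 h it was -0.061, and CSF1R, C1QB and AIF1 turned to 0.22, 0.11 and 0.0089. In bulk skin, fewer cells of a type and less RNA per cell cannot be told apart.

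Complement genes outside C1q followed the same arrays. The complement list, which shares the C1q genes with the macrophage list, had 16 of 20 genes lower and a median of -0.36. CFP, properdin, which stabilises the alternative pathway convertase, read 7.80, 7.60 and 7.69 at 0 h and 7.76, 6.37, 6.25, 7.61 and 7.61 at 48 h. Only animals 9 and 10 at 48 h stood apart, and the difference was -0.57 (interval -1.23 to 0.08). C2 of the classical pathway differed by -0.59, CD55, which protects host cells from complement, by -0.71, and CFB of the alternative pathway by -0.084. The median complement gene was -0.66, -1.04 and 0.77 in animals 9, 10 and 11. The list median was -0.088 without animal 10 at 48 h, -0.21 without animal 9 at either time or with animal as a fixed block, and -0.58 without animal 11 at 48 h.

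Antigen presentation through class II molecules was lower in 11 of 12 kept genes, with a median of -0.38. That median was -0.25 without animal 10 at 48 h or with animal as a fixed block, and -0.58 without animal 11 at 48 h. BOLA-DRA, the alpha chain of the bovine DR molecule, was 11.86, 12.07 and 11.77 at 0 h and 11.27, 11.07, 11.16, 11.95 and 11.31 at 48 h, a difference of -0.55. Only animal 11 at 48 h reached the 0 h range. BOLA-DRB3 differed by -0.46 and the peptide loading gene BOLA-DMB by -0.44. Other genes of this region reported the animal more than the time. BOLA-DQA5 was 11.35 and 10.73 in animal 10 at 0 h and 48 h and between 3.63 and 4.89 in the other 6 arrays. Over all arrays of the series, with resistant animals included, 77% of the variance of BOLA-DQA5 lay between animals. The class I probe set named BOLA was 12.77 and 12.85 in animal 11 and at most 7.31 in the other arrays. The animals at the 2 times are not the same, and the differences of these genes of -0.56 and -1.14 had intervals of several log2 units.

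Lymphocyte genes were read in separate lists for T and natural killer cells and for B and plasma cells. Of 13 kept genes of T cells and natural killer cells, 12 were lower (median -0.37). CD3G, a chain of the T cell receptor complex, read 8.73, 8.52 and 8.30 at 0 h and 7.29, 7.12, 7.66, 8.58 and 8.07 at 48 h, a difference of -0.77 (interval -1.74 to 0.19). Here animal 7 was low together with animals 9 and 10. ZAP70, the kinase next to that receptor, differed by -0.57, CD247, its zeta chain, by -0.37, and the chemokine CCL5 by -0.71. CD3D (-0.45) was the 1 gene of this list whose arrays did not overlap. B and plasma cell genes were even, with 2 of 4 higher. CD79A, which defines B cells, was near the bottom of the arrays, at 1.79 to 3.06 at 0 h and 0.66 to 3.22 at 48 h. MS4A1, the other B cell marker measured, was brighter, at 7.82 to 9.67 at 0 h and 7.25 to 9.25 at 48 h.

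Interferon-gamma response genes were lower in 9 of 9, with a median of -0.35, which was -0.19 with animal as a fixed block and -0.22 in the paired fit. CXCL10, a chemokine that draws T cells, was 7.87, 7.85 and 7.52 at 0 h and 6.76, 6.13, 7.07, 7.87 and 6.14 at 48 h. Animal 11 again held the 0 h level, and the difference was -0.95 (interval -2.28 to 0.38). WARS1, a transfer RNA synthetase induced by interferon, differed by -0.34, and the immunoproteasome gene PSMB10 by -0.38. The type I interferon list had 11 of 14 genes lower with a median of -0.18, which ran from -0.30 without animal 11 at 0 h to -0.081 without animal 13 at 48 h. It was -0.29 without animal 7 at 48 h and -0.10 without animal 10 at 0 h. In the list of mast cells, basophils and eosinophils all 5 genes were lower (median -0.31). The median was -0.12 without animal 9 at 0 h, -0.55 without animal 11 at 0 h, -0.17 with animal as a fixed block and -0.20 in the paired fit. The mast cell tryptase TPSB2 was 6.70, 7.06 and 6.07 at 0 h and 6.83, 5.81, 2.37, 6.21 and 5.96 at 48 h, so its -1.18 was set mainly by animal 10. KIT, the stem cell factor receptor, which melanocytes also carry, differed by -0.31, and the IgE receptor chain FCER1A by -0.38.

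Neutrophil genes gave no common direction. Of 8 kept genes, 4 were higher, with a median of 0.023, and CXCR2 and CSF3R, which define neutrophils, had no named probe set. PGLYRP1, a granule protein that binds bacterial cell walls, read 6.14, 6.50 and 7.42 at 0 h and 10.96, 8.71, 10.83, 5.84 and 6.02 at 48 h. It was high in animals 7, 9 and 10, whose XIST was low, and below every 0 h value in animals 11 and 13, whose XIST was high. At 0 h the order was the reverse, with animal 11 above animals 9 and 10. A link to the XIST split was not tested. The difference of 1.79 had an interval from -0.95 to 4.52. S100A8 differed by -0.44 and S100A12 by -0.47. SAA3, an acute phase protein made in inflamed epithelium, was 10.85, 11.30 and 11.36 at 0 h and 12.87, 11.40, 10.19, 13.98 and 13.55 at 48 h. It was high in animals 7, 11 and 13, a different set of animals from PGLYRP1, and its difference was 1.23 (interval -0.38 to 2.84).

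Signals and chemokines were spread around 0. The chemokine list had 14 of 19 genes lower (median -0.26), the type 2 list 4 of 6 lower (-0.091), and the TNF and NF-kB list 9 of 14 lower (-0.032). The chemokine median was -0.013 without animal 10 at 48 h, -0.13 and -0.17 without animals 10 and 9 at 0 h, and -0.092 with array weights. The type 2 median turned to 0.066 without animal 10 at 48 h and to 0.023 without animal 11 at 0 h. CCL26, an eosinophil-attracting chemokine, was 11.94, 11.71 and 14.25 at 0 h and 12.53, 11.72, 10.43, 14.11 and 12.15 at 48 h, with animal 11 high at both times. TNFAIP6, an inflammation-induced binder of hyaluronan, was lower in animals 9, 10 and 11 by -2.28, -1.16 and -1.24. Over all 8 arrays its values at 0 h and 48 h overlapped, and its unadjusted p was not under 0.05.

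Matrix genes were lower in 20 of 23, with a median of -0.36, which was -0.14 without animal 10 at 48 h and -0.59 in the paired fit. COL1A1, the main collagen of dermis, was 13.90, 13.01 and 12.59 at 0 h and 13.02, 12.39, 10.18, 13.03 and 12.62 at 48 h. Animal 10 at 48 h was far below the rest, and the difference was -0.92 (interval -2.36 to 0.53). COL3A1 differed by -0.42, the collagen-binding protein SPARC by -0.72, and ELN, elastin, by -0.64. THBS2, a matrix glycoprotein, went against its list at 0.97, with 11.47, 12.89 and 11.80 in animals 7, 11 and 13 at 48 h, 10.08 and 8.65 in animals 9 and 10, and 9.33 to 10.46 at 0 h. Within animals the median matrix gene was -0.91, -1.28 and 0.27. In the list of matrix proteases and their inhibitors, 10 of 12 were lower (median -0.11), with MMP14 at -0.37 and MMP19 at -0.51. That median was -0.0014 without animal 10 at 48 h, -0.18 without animal 11 at 48 h and -0.24 in the paired fit.

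Epidermal lists had small medians that hid opposite animals. Of 8 basal keratinocyte genes 7 were lower (median -0.16), and all 6 genes of epidermal differentiation were lower (-0.21). KRT14 was 13.52, 14.31 and 14.21 at 0 h and 14.00, 14.09, 14.56, 12.96 and 13.80 at 48 h. Animal 11 at 48 h was the lowest of the 8 arrays, while animals 9 and 10 were above their own 0 h values. COL17A1, which anchors basal cells, differed by 1.13, 0.16 and -1.73 within animals 9, 10 and 11, and DSG1, a desmosomal cadherin of upper layers, by 0.078, 0.45 and -0.81. The basal cadherin CDH3 differed by -0.24 between groups, and TGM3, which cross-links the cornified layer, by -0.65. The basal list median lay between -0.34 (without animal 9 at 0 h) and 0.060 (without animal 11 at 48 h), and without animals 10 and 11 at 0 h and animal 10 at 48 h it was -0.0094, -0.036 and -0.29. The differentiation median was -0.040 without animal 11 at 48 h, -0.12 without animal 10 at 0 h, -0.44 without animal 9 at 0 h and -0.46 without animal 10 at 48 h. Without animal 11 at 48 h, KRT14, COL17A1 and DSG1 turned to 0.097, 0.093 and 0.021.

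The wound response list of keratinocytes had 7 of 7 genes lower (median -0.29), and the median was -0.15 without animal 11 at 48 h and -0.14 with array weights. Its antimicrobial member S100A7, psoriasin, was 7.19, 10.23 and 12.11 at 0 h and 6.79, 9.58, 13.07, 8.59 and 6.50 at 48 h. It was higher within animals 9 and 10, by 2.39 and 2.84, and lower within animal 11, by -3.52, and the groups overlapped over most of their range. The sebaceous and lipid list had a median of -0.18, with 11 of 14 and 12 of 14 genes higher in animals 9 and 10 and 0 of 14 in animal 11. Its median ran from -0.33 without animal 10 at 48 h to -0.0045 without animal 7 at 48 h, and was 0.074 in the paired fit. PLIN2, which coats lipid droplets, differed by -0.57 between groups.

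Smooth muscle was the list in which all 3 animals had a median above 0. All 11 genes were higher at 48 h, by 0.071 to 0.30 (median 0.18), and within animals the medians were 0.36, 0.23 and 0.38. The differences were small beside the spread. DES, desmin, was 10.21, 10.62 and 11.76 at 0 h and 11.04, 10.81, 10.19, 12.68 and 10.50 at 48 h, and ACTA2, smooth muscle actin, differed by 0.22. The list median was -0.0082 without animal 11 at 48 h, -0.020 with array weights, 0.026 and 0.086 without animals 9 and 10 at 0 h, 0.53 without animal 11 at 0 h, and 0.30 in the paired fit. The endothelial list had 10 of 15 genes higher (median 0.082), and its median turned to -0.089 without animal 11 at 48 h and to -0.025 without animal 9 at 0 h, and was 0.17 without animal 10 at 48 h and 0.25 with animal as a fixed block.

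The melanocyte list had the largest median, 0.58, and its high arrays at 48 h were those of animals 7 and 13. TYRP1, a pigment enzyme, was 6.605, 8.96 and 10.81 in animals 9, 10 and 11 at 0 h and 7.34, 9.72 and 10.61 in the same animals at 48 h. Animals 7 and 13, which have no 0 h array here, read 12.32 and 12.60. PMEL, a melanosome protein, was 12.76 and 12.66 in those 2 animals and between 10.66 and 12.21 in the other 6 arrays. Within animals the list medians were -0.11, 0.43 and -0.36. The median between groups was -0.021 with animal as a fixed block, 0.0043 in the paired fit, and 0.27, 0.35 and 0.33 without animal 9 at 0 h, animal 7 at 48 h and animal 13 at 48 h.

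Housekeeping lists lay close to 0 with narrow ranges. The median was 0.026 over 36 genes of oxidative phosphorylation, -0.015 over 60 cytosolic ribosomal proteins, 0.023 over 28 cell cycle genes and 0.0033 over 15 genes of the unfolded protein response. For all genes of the first 3 of these lists the 95% interval lay within 1 log2 unit of 0.

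**Figure D3:**
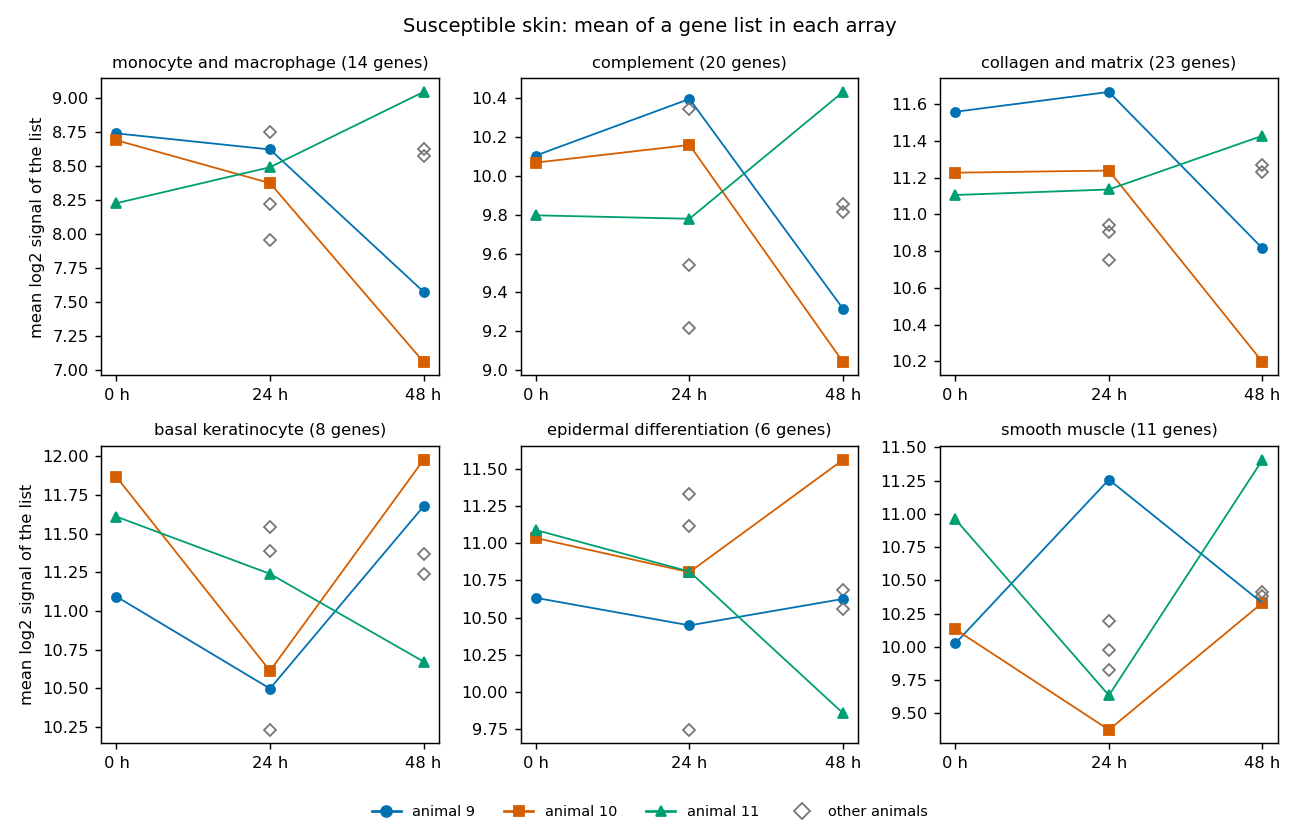
Mean log2 signal of 6 gene lists in each susceptible array at 0 h, 24 h and 48 h. Lines join animals 9, 10 and 11, and open diamonds are the other animals. Between 24 h and 48 h the macrophage, complement and matrix lists go down in animals 9 and 10 and up in animal 11, while the basal keratinocyte list goes the opposite way in each.

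The 3 animals sampled at both times showed no positive correlation of their changes. Their changes from 0 h to 48 h, compared over the 13809 probe sets, correlated at r = -0.082 for animals 9 and 10, -0.11 for animals 9 and 11, and -0.35 for animals 10 and 11. These correlations run across probe sets of the same 6 arrays, with each change taken from a single pair of arrays, and are given as a description. At least 2-fold differences within an animal were common. There were 275 higher and 943 lower probe sets in animal 9, 480 and 467 in animal 10, and 411 and 581 in animal 11. Dim probe sets made many of these. Among the 10370 probe sets at or above the array median in all 6 arrays, the counts were 113 and 279, 129 and 186, and 194 and 273, and the correlations were -0.0029, -0.19 and -0.37.

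No probe set was 2-fold higher in all 3 animals, and 5 were 2-fold lower in all 3. Among the 10370 brighter probe sets there were 0 and 2, and CHAC1 was the 1 with a gene symbol. Of the 5, 4 have a gene symbol: RCAN2, TNFAIP6, CHAC1 and FCN1. The arrays of TNFAIP6 overlapped between the times. CHAC1, which degrades glutathione, differed by -1.56, -1.54 and -1.68 within animals, but animal 13 at 48 h read 9.64, inside the 0 h range of 9.49 to 9.92. FCN1, ficolin, a complement-activating lectin of monocytes, differed by -1.20, -3.21 and -1.90, with dim values from 2.06 to 6.99. These genes were chosen for their agreement among animals, so the values describe them and test nothing.

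Over the gene lists the animals fell into a repeated arrangement. In 23 of 42 lists the medians of animals 9 and 10 had one sign and that of animal 11 the other. Macrophage, complement, class II and matrix lists were lower in animals 9 and 10 and higher in animal 11, and the basal keratinocyte, epidermal differentiation, sebaceous and sweat gland lists were the reverse. All 3 medians were above 0 in 1 list and below 0 in 6. In each of the 3 animals the macrophage, complement and matrix medians thus had the opposite sign to the basal keratinocyte median. The part of the mix of skin layers in a biopsy was not tested.

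**Figure D4:**
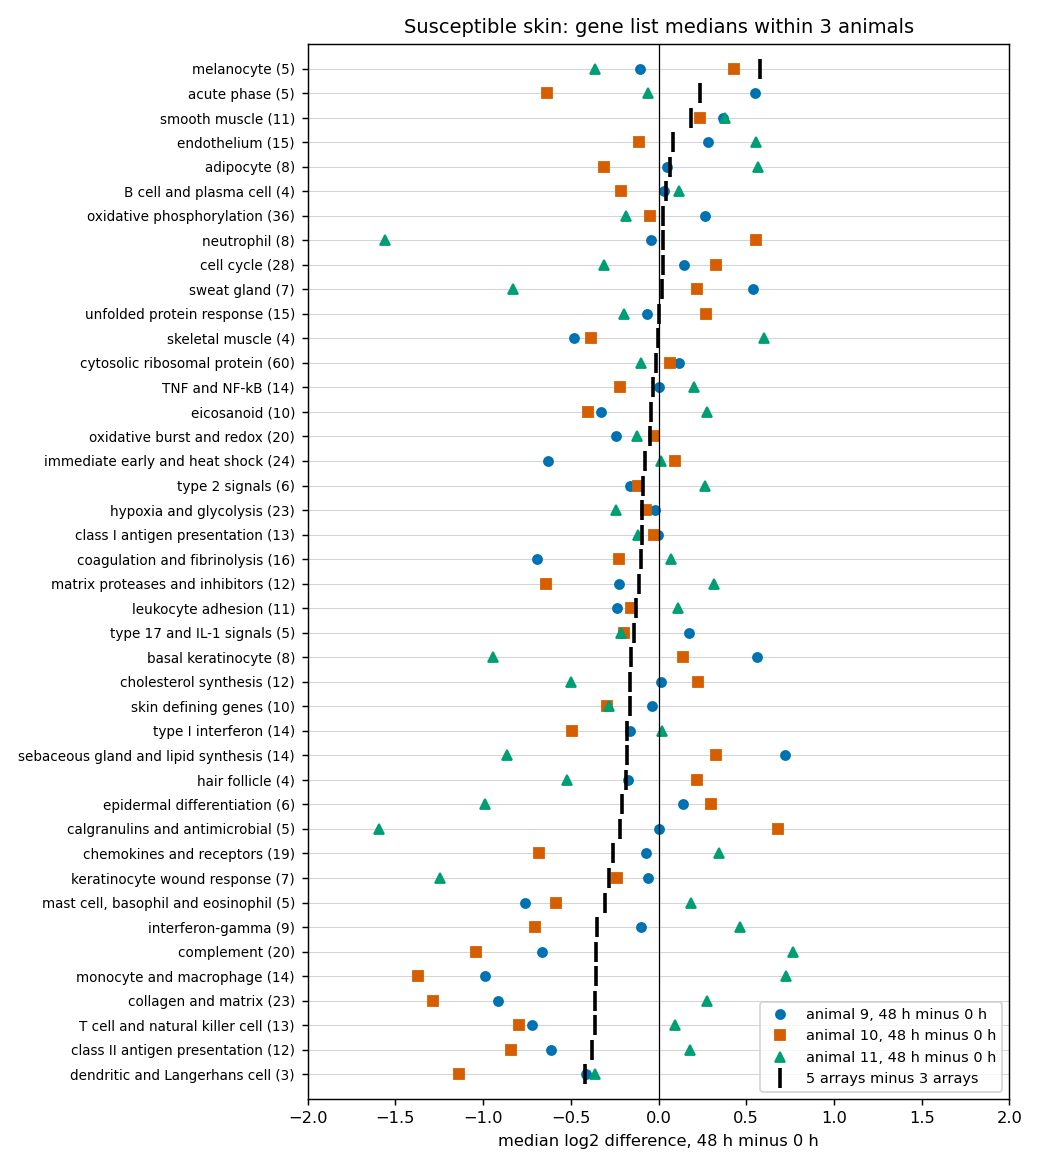
Median log2 difference of each gene list between 48 h and 0 h within animals 9, 10 and 11 (symbols), and between the 5 arrays at 48 h and the 3 at 0 h (black bars), for 42 lists with the number of kept genes in brackets. The symbols of 1 list often span more than 1 log2 unit, from -1.37 to 0.73 for the macrophage list, while the black bars stay between -0.42 and 0.58.

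Resistant skin gives a comparison for the same interval. The difference of the 48 h response, susceptible minus resistant, was tested in the same fit. It called 0 of 13809 probe sets (smallest adjusted p = 0.9998 by limma), with 405 (2.93%) at an unadjusted p under 0.05, of which 242 (1.75%) were lower in susceptible skin and 163 (1.18%) higher. Without animal 11 of susceptible skin at 48 h, 810 probe sets had an unadjusted p under 0.05, and still none was called.

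COX7A1, a subunit of the respiratory chain found in muscle, had the smallest p of a named gene in this test and was chosen after its value was seen. In susceptible skin it was 9.90, 9.82 and 9.91 at 0 h and 9.70, 10.09, 9.45, 10.25 and 9.52 at 48 h, a difference of -0.074. In resistant skin it ran from 9.13 to 10.02 at 0 h and from 10.005 to 10.80 at 48 h, a difference of 0.96. The responses differed by -1.03 ± 0.27 (SE, interval -1.59 to -0.47), and the adjusted p was 0.9998 by limma. RGS10 differed in response by -1.30, MMP19 by -1.51, ENG, an endothelial co-receptor of TGF-beta, by -1.18, CFP by -1.35 and GCHFR by -1.12. Each had an unadjusted p under 0.05 and an adjusted p of 0.9998 by limma. These genes were named through the susceptible comparison, which is part of the difference of responses. Their small unadjusted p is therefore not a separate result.

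The macrophage list held the most genes of this kind. All 14 genes had a positive difference in resistant skin, with a median of 0.91 against -0.36 in susceptible skin, and for 11 of 14 the difference of responses had an unadjusted p under 0.05, against 2.93% of all probe sets. All 14 were lower in the susceptible response, against 46.7% of all probe sets. For all 14 the upper 95% limit in susceptible skin lay below the resistant estimate, against 5.45% of all probe sets. That count leaves out the interval of the resistant estimate itself. None passed the adjusted threshold for the difference of responses. The macrophage list, like the others, was chosen with earlier results of these data known, and its genes share arrays. Its counts describe the list and test nothing. The mean of the list was 7.86 to 9.12 in the 5 resistant arrays at 0 h and 9.13 to 10.27 at 48 h, where it did not overlap the susceptible 48 h range of 7.06 to 9.04. At 0 h the resistant range took in the susceptible one of 8.23 to 8.74. C1QA differed in response by -1.57, C1QB by -1.60, C1QC by -1.29 and CD68 by -1.39. Leaving out each of the 18 arrays of these 4 groups in turn left between 5 and 13 of the 14 genes at an unadjusted p under 0.05. The fewest, 5, came without animal 9 at 0 h or at 48 h, and the median difference of responses stayed between -1.57 and -1.04. The count was 6 without animal 10 at either time, and 7 without resistant animal 5 at 0 h or resistant animal 1 at 48 h.

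In the complement, class II and interferon-gamma lists most genes pointed the same way. The difference of responses was below 0 in 18 of 20, 9 of 12 and 9 of 9 genes, against 46.7% of all probe sets. It was above 0 in 2 complement genes and 3 class II genes. The difference of responses had an unadjusted p under 0.05 in 7 of 20 complement genes (list median -0.98), 7 of 12 class II genes (-0.94) and 4 of 9 interferon-gamma genes (-0.94). BOLA-DRA differed in response by -1.37, BOLA-DMB by -1.24, BOLA-DRB3 by -1.18, CFB by -1.27, C2 by -1.25 and PSMB10 by -1.07. In the T cell and natural killer cell list it was 0 of 13 genes, and in the collagen and matrix list 1 of 23. The complement count ran from 2 to 8 genes when single arrays were left out, and was 2, 3 and 4 without susceptible animal 9 at 48 h, animal 9 at 0 h and animal 10 at 48 h. The class II count was 4 without susceptible animal 10 at 0 h, susceptible animal 9 at 48 h, resistant animal 5 at 0 h or resistant animal 1 at 48 h. The interferon-gamma count was 2 without susceptible animal 13 at 48 h or either of the same 2 resistant arrays. Among single genes elsewhere, TPSB2 differed in response by -2.55 and MMP14 by -2.17, and their lists held few such genes. In the list of mast cells, basophils and eosinophils 1 of 5 genes had an unadjusted p under 0.05. Its median difference of responses, -1.12, was -0.53 without resistant animal 1 at 48 h. In the list of matrix proteases and inhibitors it was 2 of 12 genes, with a median of -0.090 and 3 genes above 0. The epidermal differentiation genes were lower by a median of -0.77 in resistant skin against -0.21 in susceptible skin, and for 0 of 6 did the difference have an unadjusted p under 0.05. The median difference of responses in this list, 0.45, was 0.068 without resistant animal 1 at 48 h, 0.17 without resistant animal 5 at 0 h, 0.26 without susceptible animal 7 at 48 h, and 0.72 without susceptible animal 11 or resistant animal 6 at 48 h.

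**Figure D5:**
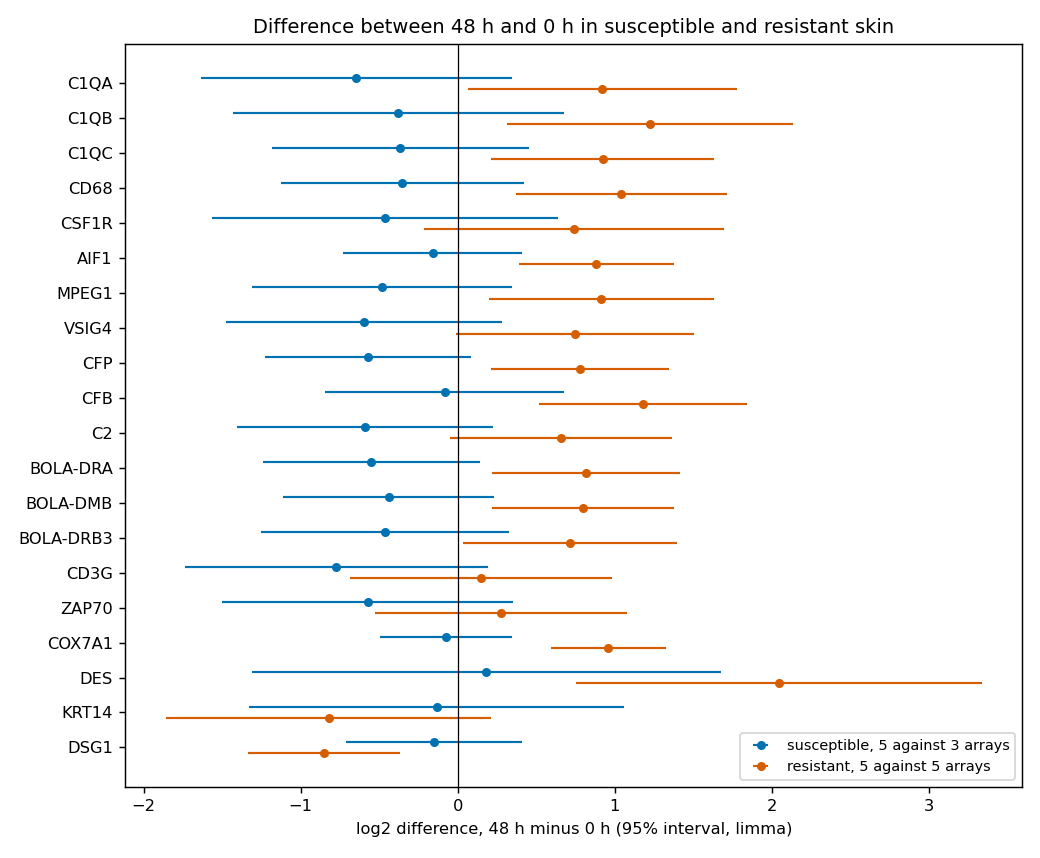
Log2 difference between 48 h and 0 h with its 95% interval from limma for 20 genes, in susceptible skin (5 against 3 arrays) and resistant skin (5 against 5 arrays). For the macrophage, complement and class II genes plotted, the susceptible estimates lie between -0.64 and -0.084 and the resistant ones between 0.66 and 1.23. All susceptible intervals include 0. The 3 class II genes whose difference of responses was above 0 are not plotted.

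At 24 h, susceptible skin can be set beside these values, with the same 3 arrays at 0 h as the base. Limma called 0 probe sets for 24 h against 0 h, with 318 (2.30%) at an unadjusted p under 0.05, and 0 for 48 h against 24 h, with 259 (1.88%). The macrophage list had a median of -0.15 at 24 h and -0.36 at 48 h against 0 h, the T cell and natural killer cell list -0.49 and -0.37, and the basal keratinocyte list -0.50 and -0.16. SAA3 differed from 0 h by 1.24 at 24 h and 1.23 at 48 h, and PGLYRP1 by 2.40 and 1.79. GPATCH1 differed by 0.71 and 0.74, RCAN2 by -0.74 and -1.10, and CD3G by -1.11 and -0.77. In animal 9 and animal 10 the macrophage list mean was 8.62 and 8.37 at 24 h, close to 8.74 and 8.69 at 0 h, and lay at 7.58 and 7.06 only at 48 h.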

How the data were processed

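The deposited values are log2 signal that the authors computed with MAS5, per the submitters' processing notes. The version and the genome build are not given in the sources used here, so no coordinates are printed. Tested on the values, the linear signal of each array had a 2% trimmed mean of 500. RNA was amplified from 50 ng, per the labels' protocols. No further scaling was applied. The array holds 24128 probe sets. After removal of 112 controls, 24016 remained, and the 13809 that reached their array's median in 3 or more arrays were tested. The platform annotation gave 1 symbol for 13292 probe sets, several for 86 and none for 10638. A gene was read by its brightest tested probe set, which gave 7016 genes.

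Means of 6 groups over 30 arrays were fitted with limma 3.58.1 in R 4.3.3 (eBayes with intensity trend, two-sided), checked on simulated data. The fit held no animal term, so arrays of the same animal at different times were treated as independent. Benjamini-Hochberg adjustment covered all tested probe sets, with a threshold of 0.05. All adjusted p-values come from limma. Members and gene lists were chosen with earlier results of these data known. Named genes were the 10 per direction with the smallest p, the 10 per direction with the largest non-overlapping difference that animals 9, 10 and 11 shared, and the 3 per list with the smallest p. All others were chosen after their values were seen. Animal numbers pair the samples, per the labels. Same-animal deviations from the group means at 0 h and 48 h correlated at -0.13, 0.27 and 0.22 in animals 9, 10 and 11. Alternatives covered scaling, filters, animal as a block, array weights and left-out arrays. Within a group the replicates are separate animals, and precision is bounded by how few arrays each group has.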

Additional observations from a re-analysis of the deposited data

Results flagged for a closer look

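Among 129 values examined at 48 h (named genes and list means), 16 had 1 of the 5 arrays far from the others. Chance alone flags about 1 in 20 independent values. The values here share the same 5 arrays, and many genes were chosen by their values at 48 h. The count of 16 therefore cannot be set against that rate. Animal 11 was the highest array for the class II list mean (9.35), BOLA-DRA (11.9), CD247 (8.84), BOLA (12.8), TUBGCP3 (9.99), the smooth muscle list mean (11.4) and the endothelial list mean (9.53). The same array was the lowest for the sweat gland list mean (8.94) and the cell cycle list mean (8.44). Animal 10 was the lowest for COL1A1 (10.2), COL3A1 (13.7), TPSB2 (2.37) and the mast cell list mean (5.91), and the highest for BOLA-DQA5 (10.7). KIT was highest in animal 9 (11.1), and FAH in animal 13 (8.15). All are log2 signals.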

How the results depend on the processing

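No alternative called a probe set at 48 h against 0 h in susceptible skin, or for the difference of responses. At an unadjusted p under 0.05, the susceptible count of 131 was 514 without the filter, 366 with array weights and 284 with animal as a fixed replicate block, and the difference of responses, 405, was 824, 696 and 618. With animal as a random replicate block (correlation 0.143) these counts were 185 and 559, and the paired fit of 6 arrays gave 150. Leaving out 1 array gave 121 to 213 (213 and 211 without susceptible animals 11 and 10 at 48 h) and 334 to 810 (810 without susceptible animal 11 at 48 h), and 10450 to 11282 intervals within 1 log2 unit.

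Of the named genes, 6 changed direction with a block or array weights. The fixed replicate block gave BOLA-DQA5 0.30, S100A7 0.051, PMEL -0.021 and COX7A1 0.056. The paired fit with its replicate block gave BOLA-DQA5 0.23, PLIN2 0.090, S100A7 0.57 and COX7A1 0.054, and array weights gave DES -0.12. Leaving out 1 array changed the direction of 14 genes. Their ranges were -1.95 to 1.91 (BOLA-DQA5), -2.60 to 0.97 (BOLA), -2.26 to 0.19 (S100A7), -0.92 to 0.37 (CCL26), -0.83 to 0.22 (CSF1R), -0.72 to 0.11 (C1QB), -0.28 to 0.0089 (AIF1), -0.19 to 0.078 (CFB), -0.54 to 0.093 (COL17A1), -0.38 to 0.097 (KRT14), -0.31 to 0.021 (DSG1), -0.19 to 0.014 (COX7A1), -0.22 to 0.63 (DES) and -0.085 to 0.65 (ACTA2). The causes were not tested. The 35 named genes whose difference of responses had an unadjusted p under 0.05 kept its direction under every alternative that included resistant skin. They were chosen for that p on the same arrays, so a change of direction was unlikely from the start and this tests nothing.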
